A study of Mus musculus with 6 samples.

Results

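The 10 genes described here, Notch1, Notch2, Notch3, Fat1, Trp53, Cdkn2a, Ccnd1, Myc, Pik3ca and Kmt2d, are recurrently altered in human squamous carcinoma of the esophagus. They were taken by name, though with earlier results of these data known. They were matched by symbol to 10 of the 54232 Ensembl gene IDs listed for each library. All 10 had enough counts to be tested, among 15763 tested genes. Only their transcript levels were measured: mutation, gene copy number and protein are not analysed here.

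The RNA came from esophagus of mice (Mus musculus) that began at 8 weeks of age to receive the carcinogen 4-nitroquinoline 1-oxide (4-NQO) at 100 µg/ml in their water, for 16 weeks, and were then kept for 12 weeks without it. Over the last 2.5 weeks they had intraperitoneal injections, 2 per week, of 10 µg of either DTA-1, an antibody that activates the T cell receptor GITR, or an isotype control antibody. Each treatment has 3 libraries of polyA RNA from minced tissue enriched for invading cells. Both groups received the carcinogen, so tissue without it is no part of the comparison, and the labels name neither strain nor sex. They also do not tie each library to a separate animal, and the p-values then measure only the spread among the 3 libraries of a group, possibly a technical one. Libraries held 23147873 to 29065162 counts. All 14 basal squamous markers, such as Krt5 and Krt14, and 15 of 16 differentiated squamous markers had more than 3 counts in every library. Levels are given as CPM, counts divided by the TMM-scaled library size and set to a common total. A fold change is the log2 ratio of the DTA-1 to the isotype group, given with its standard error (SE).

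In squamous epithelium these genes sit in a few linked circuits. NOTCH receptors are cut after ligand binding, and the freed intracellular part drives differentiation with the DNA-binding partner RBPJ. FAT1 is an atypical cadherin that restrains growth signaling at cell contacts. The p53 protein, encoded by Trp53, arrests or kills cells with damaged DNA. Cdkn2a encodes inhibitors of the CDK4 and CDK6 kinases and of MDM2, while cyclin D1 (Ccnd1) activates those kinases. MYC drives growth and ribosome production, PIK3CA is a catalytic subunit of PI3 kinase, and KMT2D methylates histone H3 at enhancers. In carcinoma the first 6 genes and Kmt2d are mostly inactivated, and Ccnd1, Myc and Pik3ca are mostly amplified or activated.

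Of the 10 genes, 9 had a negative fold change and 1, Pik3ca, a positive one, with a median of -0.65 (-0.43 without isotype replicate 1). Over all tested genes 52.9% were negative and the median was -0.03. None of the 10 passed edgeR's quasi-likelihood test at an adjusted p of 0.05, and neither did any of the 15763 tested genes, so the share called was 0%. Before adjustment 5 of the 10 had p under 0.05 in edgeR (Myc, Notch1, Notch2, Notch3 and Cdkn2a), all with negative fold changes, against 12.7% of all tested genes in either direction with 7.52% lower and 5.21% higher. DESeq2 called 0 of the 10, against 1.12% of the 16084 genes with an adjusted p. It counted 5 at the unadjusted level, where 8.65% of 29117 genes lay. That larger set includes genes with too few counts for the edgeR test, so its share is not comparable with the edgeR one. Limma-voom called 0 of the 10 and 0% of all, and counted 4 at the unadjusted level, where 13.8% of all genes lay. For Myc, Notch1 and Notch2 all DTA-1 values were under all isotype values, which held for 9.38% of tested genes. Pik3ca alone showed the opposite separation, which held for 8.6%.

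**Figure D1:**
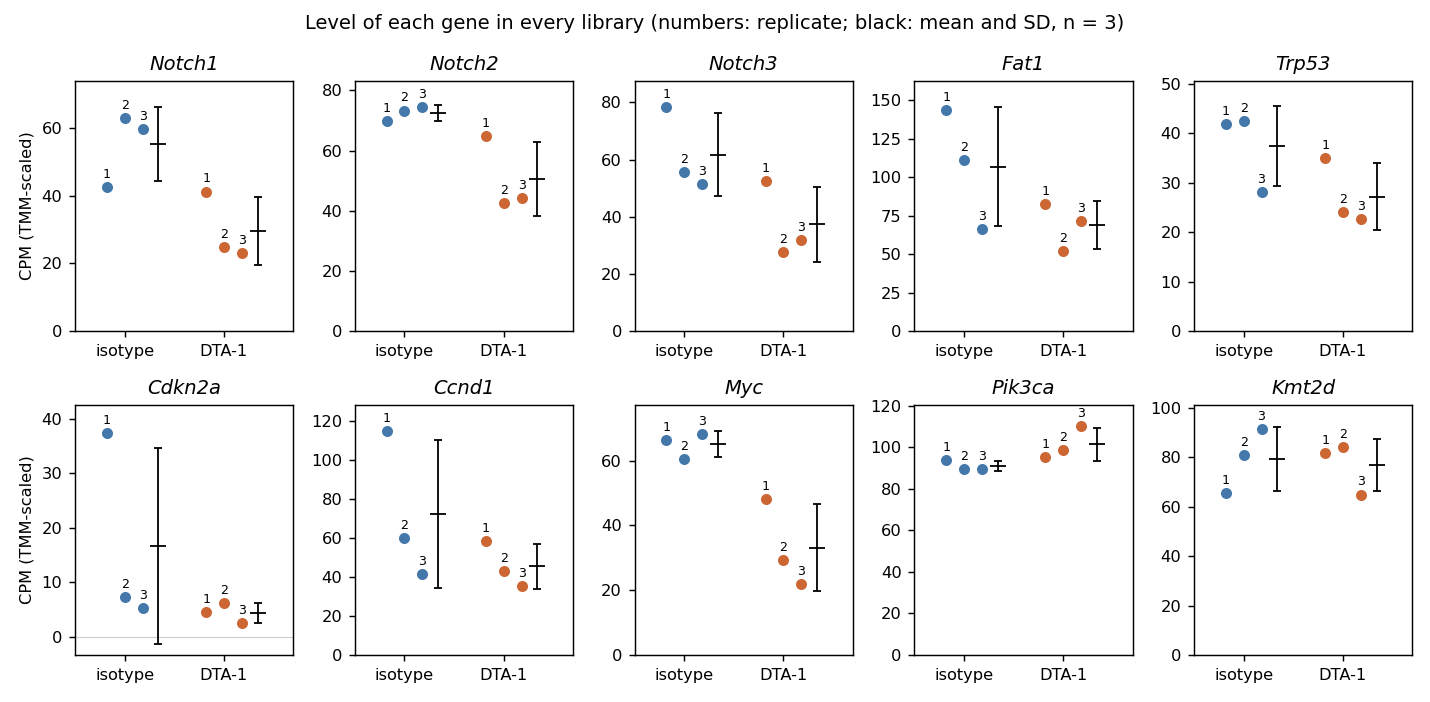
TMM-scaled CPM (y axis, from 0) of each gene in the 3 isotype and 3 DTA-1 libraries (points, numbered by replicate), with group mean and SD in black (n = 3 each). Myc, Notch1 and Notch2 separate the groups downward, Pik3ca upward, and Cdkn2a has 1 high library, isotype 1 at 37.4 CPM.

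DTA-1 replicate 1 was the highest of the DTA-1 libraries for Trp53, Notch1, Notch2, Notch3, Fat1, Ccnd1 and Myc. Over all libraries it was neither the highest nor the lowest library for any of the 10 genes. DTA-1 replicate 3 was the lowest for 6 of the 10 and DTA-1 replicate 2 for 3. Isotype replicate 1 was the highest for 4 genes, Notch3, Fat1, Cdkn2a and Ccnd1. Without DTA-1 replicate 1, edgeR called 3 of the 10, Myc (fold change -1.34, adjusted p = 0.0323), Notch1 (-1.20, 0.0467) and Notch2 (-0.74, 0.0463), as lower with DTA-1, against 3.69% of all genes in that fit and 3.31% in that direction. DESeq2 without the same library called these 3 and Notch3 (adjusted p = 0.00384), against 16% of all genes and 10.5% in that direction. Leaving out any other single library gave edgeR no call among the 10.

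The NOTCH receptors are the surface proteins that start the pathway. Notch1 (chromosome 2, 26457903 to 26516663, minus strand, GRCm38, ENSMUSG00000026923), the receptor most often mutated in this cancer, had 42.6, 62.9 and 59.7 CPM in the isotype group, listed here and below in the order of replicates 1, 2 and 3. In the DTA-1 group it had 41.2, 24.7 and 23.1 CPM. The groups did not overlap, but isotype replicate 1 and DTA-1 replicate 1 nearly met. The means were 55.1 ± 10.9 and 29.7 ± 10.0 CPM (SD, n = 3 each), a fold change of -0.89 ± 0.27 (SE) with an adjusted p of 0.39 in edgeR. A gene on the opposite strand, 0610009E02Rik, overlaps 7.5% of its exon length but had only 59 counts over the 6 libraries against 6490.

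Notch2 (chromosome 3, 98013527 to 98150361, plus strand, ENSMUSG00000027878) was the most even of the receptors in the isotype group, at 69.7, 73.3 and 74.6 CPM. In DTA-1 libraries it stood at 64.7, 42.4 and 44.3 CPM, below all isotype libraries, with replicate 1 again the nearest. Its fold change was -0.52 ± 0.19 (SE, adjusted p = 0.39 in edgeR).

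Notch3 (chromosome 17, 32120820 to 32166852, minus strand, ENSMUSG00000038146), a receptor that pericytes and smooth muscle also make, stood at 78.2, 55.6 and 51.3 CPM in isotype and 52.4, 27.8 and 31.9 CPM in DTA-1 libraries. Only DTA-1 replicate 1 reached into the isotype range. The fold change was -0.72 ± 0.29 (SE, adjusted p = 0.39 in edgeR). Other pericyte markers gave mixed signs: of 5 tested without Notch3, 3 had positive and 2 negative fold changes (median 0.13), their summed level spanning 295.2 to 615.2 CPM in isotype and 477.7 to 774.4 CPM in DTA-1 libraries. Notch4, a receptor of endothelial cells, averaged 8.08 ± 2.43 against 9.38 ± 2.45 CPM (SD, n = 3 each), with a fold change of 0.21 ± 0.33 (SE).

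The 250 bases before the RefSeq start sites of Notch1 and Notch2 are shown because both receptors separated the groups in the same direction. Both are rich in CG pairs, with 16 in Notch1 and 34 in Notch2 against a median of 6 over all such windows. Capitals mark GGGCGG on either strand (CCGCCC on the printed one), the GC box that SP1 binds.
Notch1, chr2:26503823-26504072, minus strand, GRCm38.p6: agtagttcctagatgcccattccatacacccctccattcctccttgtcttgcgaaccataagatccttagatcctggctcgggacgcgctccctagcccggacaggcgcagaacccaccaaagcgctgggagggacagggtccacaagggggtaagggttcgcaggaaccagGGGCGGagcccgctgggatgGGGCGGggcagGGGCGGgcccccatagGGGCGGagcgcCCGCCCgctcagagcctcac
Notch2, chr3:98013288-98013537, plus strand, GRCm38.p6: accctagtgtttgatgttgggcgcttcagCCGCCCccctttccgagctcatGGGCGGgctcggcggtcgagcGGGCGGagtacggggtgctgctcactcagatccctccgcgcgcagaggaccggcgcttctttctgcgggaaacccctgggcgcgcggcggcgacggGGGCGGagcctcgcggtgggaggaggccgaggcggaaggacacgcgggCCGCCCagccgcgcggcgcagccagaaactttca
GGGCGG or its reverse complement occurs 5 times in each, and 32.7% of the 32851 RefSeq windows of this length hold it at least 1 time. TGGGAA, the core of the site that RBPJ binds, is in neither on either strand, and 21.6% of windows hold it.

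Of the 5 NOTCH ligand genes 4 could be tested, 3 with negative fold changes and 0 called. Jag1, whose product NOTCH receptors bind on neighboring cells, stood at 114.8, 67.9 and 59.7 CPM in isotype and 52.5, 29.9 and 32.1 CPM in DTA-1 libraries, with no overlap. Its fold change was -1.08 ± 0.33 (SE, adjusted p = 0.39 in edgeR), and that of Dll1 was -0.67 ± 0.22 (SE), also without overlap between groups. Jag2 averaged 105.3 ± 22.3 against 77.8 ± 17.7 CPM (SD, n = 3 each).

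Among 20 genes that process the receptor or work with it in the nucleus, 14 had negative fold changes (median -0.27) and 0 were called. For 5 of them all DTA-1 values were under all isotype values, as for 9.38% of all tested genes. Among these were Adam17, which cuts the receptor outside the cell, and Numb, an inhibitor. Their fold changes were -0.46 ± 0.19 and -0.43 ± 0.17 (SE). Adam10, another protease gene of this list, overlapped between groups, with a fold change of -0.30 ± 0.23 (SE). Rbpj itself stood between 19.5 and 23.4 CPM in isotype and between 22.7 and 24.9 CPM in DTA-1 libraries.

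NOTCH target genes had fold changes in both directions. Of 7 tested, the receptor gene Notch4 among them, 5 had positive and 2 negative fold changes, with 0 called. The median, 0.21, was the value of Notch4. Nrarp, a feedback inhibitor made in response to NOTCH, stood at 15.4, 14.4 and 26.04 CPM in isotype and 13.4, 4.76 and 5.43 CPM in DTA-1 libraries, without overlap (fold change -1.24 ± 0.46, SE). Without DTA-1 replicate 1 it was -1.87 and edgeR called it (adjusted p = 0.0492), and without isotype replicate 3 it was -0.90. Hey2, a target known from vessels and heart, showed the opposite separation, but narrowly and at a low level. It stood at 1.92, 1.92 and 3.25 CPM in isotype and 4.04, 5.47 and 3.34 CPM in DTA-1 libraries (fold change 0.86 ± 0.37, SE). Hes1, a repressor that NOTCH induces in many tissues, overlapped between groups at 74.2, 36.9 and 29.3 against 38.6, 25.1 and 21.5 CPM.

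**Figure D2:**
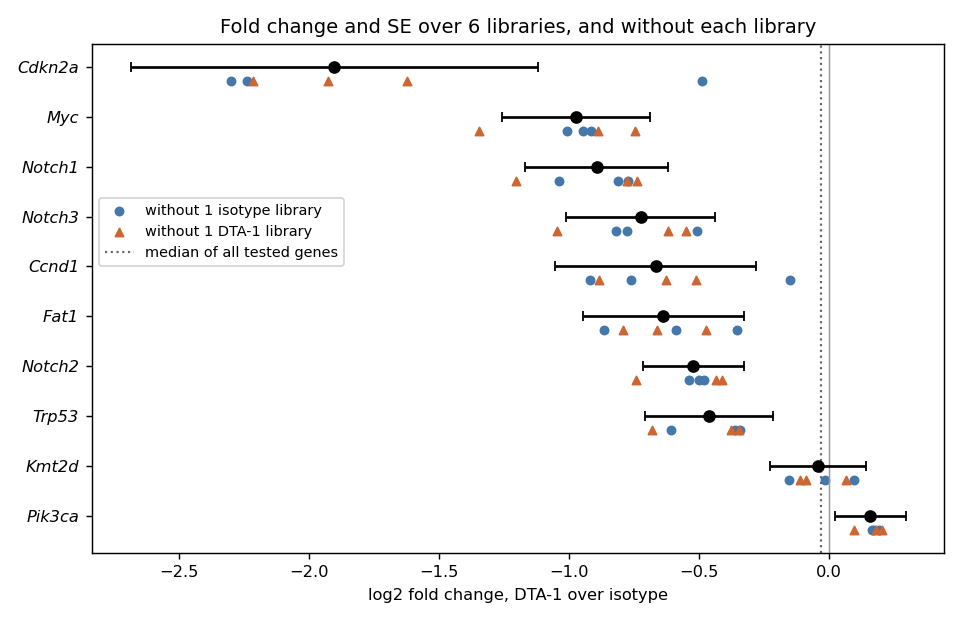
Log2 fold change of DTA-1 over isotype for the 10 genes (black points, bars are SE), the same after leaving out 1 isotype (blue circles) or 1 DTA-1 library (orange triangles), and the median of all tested genes (dotted line, -0.03). The estimates for Cdkn2a and Ccnd1 shift toward 0 when isotype replicate 1 is left out, to -0.49 and -0.15.

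Fat1 (chromosome 8, 44935447 to 45052257, plus strand, ENSMUSG00000070047) stood at 143.6, 110.9 and 66.3 CPM in isotype and 82.7, 52.2 and 71.4 CPM in DTA-1 libraries. Isotype replicate 3 lay below 2 of the DTA-1 libraries, so the groups overlapped, and the fold change was -0.64 ± 0.31 (SE, adjusted p = 0.409 in edgeR), or -0.35 without isotype replicate 1. Its paralog Fat2, an epithelial family member, stood at 82.7, 96.2 and 90.6 against 80.0, 37.2 and 18.01 CPM, without overlap (fold change -0.99 ± 0.48, SE). Fat3 and Fat4 were low, at 3.12 CPM or less and 14.8 CPM or less in every library. Of its 5 tested paralogs and partners, Fat2, Fat3 and Fat4 among them, 3 had negative fold changes (median -0.10) and 0 were called. In the Hippo pathway, which FAT cadherins feed into, 10 of 18 genes had positive and 8 negative fold changes (median 0.02), with 0 called. Ajuba, a scaffold protein altered in squamous carcinomas, averaged 109.5 ± 17.8 against 52.8 ± 29.8 CPM, and the transcription factor Tead1, abundant in muscle, 266.3 ± 22.7 against 384.6 ± 73.8 CPM (SD, n = 3 each). Neither passed edgeR's test, at an adjusted p of 0.39 each. The effector Yap1 ranged from 139.5 to 155.6 CPM over all 6 libraries.

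Trp53 (chromosome 11, 69580359 to 69591873, plus strand, ENSMUSG00000059552) stood at 41.8, 42.4 and 28.1 CPM in isotype and 34.9, 24.0 and 22.7 CPM in DTA-1 libraries. Isotype replicate 3 lay below DTA-1 replicate 1, and the fold change was -0.46 ± 0.24 (SE, adjusted p = 0.428 in edgeR). Among 11 regulators and relatives of p53, 8 had negative fold changes (median -0.18) and 0 were called. The lowest p values belonged to Ppp1r13l, an inhibitor of p53 made in epithelium (fold change -1.14 ± 0.35), the relative Trp73 (-1.08 ± 0.43) and the basal squamous factor Trp63 (-0.85 ± 0.41). For Trp63 the value was -1.41 without DTA-1 replicate 1 (adjusted p = 0.0591 in edgeR and 0.000327 in DESeq2) and -0.52 without DTA-1 replicate 3. Mdm2, the ligase that degrades p53 and is also its target, had a fold change of 0.32.

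Transcripts of 16 p53 targets went both ways, 6 with positive and 10 with negative fold changes (median -0.22), and 0 were called. Sesn2, a stress-induced regulator of growth signaling, averaged 21.1 ± 2.08 in isotype and 11.3 ± 3.28 CPM in DTA-1 libraries, without overlap. Ccng1, a target that muscle makes in quantity, averaged 698.9 ± 236 against 1170 ± 229 CPM (SD, n = 3 each), with all DTA-1 values over all isotype values. Cdkn1a, the p53 target that halts the cell cycle, overlapped at 180 to 287.6 against 110.4 to 256.9 CPM.

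Cdkn2a (chromosome 4, 89274471 to 89294653, minus strand, ENSMUSG00000044303) had the widest spread of the 10 genes. It stood at 37.4, 7.28 and 5.34 CPM in isotype and 4.61, 6.22 and 2.57 CPM in DTA-1 libraries, from 1016, 193 and 148 and from 106, 132 and 60 counts. Isotype replicate 1 was 7.01-fold above isotype replicate 3, and the SD of log2 CPM in the isotype group was at percentile 97.6 of all tested genes. The other 5 libraries lay between 2.57 and 7.28 CPM with the groups overlapping. The fold change of -1.90 ± 0.78 (SE, adjusted p = 0.391 in edgeR) became -0.49 without isotype replicate 1 and -2.30 without isotype replicate 3. DESeq2 called Cdkn2a without isotype replicate 3 (adjusted p = 0.0244), where 6.1% of all genes were called and 2.05% as lower.

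The neighboring inhibitor gene Cdkn2b showed the same high library, at 28.4, 10.8 and 8.44 CPM in isotype and 5.65, 5.56 and 4.83 CPM in DTA-1 libraries. Its groups did not overlap, and its fold change of -1.57 ± 0.47 (SE, adjusted p = 0.39 in edgeR) was -0.83 without isotype replicate 1. DESeq2 gave Cdkn2b an adjusted p of 0.0736, and called it on leaving out isotype replicate 3 (0.00569) or DTA-1 replicate 1 (0.039). Isotype replicate 1 also held the highest levels of collagen transcripts, Col1a1 at 558.3 CPM against 23.8 to 97.4 CPM elsewhere and Col3a1 at 1122 against 72.4 to 314.2 CPM, and of the basement membrane gene Lamb3, at 330.4 against 50.6 to 145.8 CPM. It held the lowest summed level of smooth muscle markers, 8160 against 13568 to 21045 CPM. Lamb3 is 1 of the 14 basal squamous markers. With the mean log2 CPM of these markers as a covariate in edgeR, the fold change of Cdkn2a was -0.13 ± 0.97 (SE). Whether these differences in marker levels bear on Cdkn2a was not tested beyond that value.

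Cdkn2a makes p19ARF and p16INK4A from separate first exons, and counts per gene cannot tell them apart. The 250 bases before each of the RefSeq starts are shown for that reason, the upstream ARF start first. Capitals mark GGGCGG and TGGGAA.
Cdkn2a ARF start, chr4:89294620-89294869, minus strand, GRCm38.p6: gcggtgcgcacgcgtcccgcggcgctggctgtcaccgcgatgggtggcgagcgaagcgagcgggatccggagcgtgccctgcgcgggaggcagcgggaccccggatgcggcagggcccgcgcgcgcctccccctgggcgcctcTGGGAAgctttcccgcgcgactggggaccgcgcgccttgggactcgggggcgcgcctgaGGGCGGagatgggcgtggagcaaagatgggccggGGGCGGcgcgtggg
Cdkn2a INK4A start, chr4:89282193-89282442, minus strand, GRCm38.p6: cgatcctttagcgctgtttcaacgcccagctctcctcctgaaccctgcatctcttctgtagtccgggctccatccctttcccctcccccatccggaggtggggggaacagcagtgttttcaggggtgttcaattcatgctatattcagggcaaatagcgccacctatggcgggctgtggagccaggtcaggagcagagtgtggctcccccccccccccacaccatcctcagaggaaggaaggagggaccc
The first window holds 40 CG pairs, 2 copies of GGGCGG and 1 of TGGGAA, and the second 7 CG pairs and none of these motifs. The other motifs searched, on both strands, were in none of the Notch1, Notch2 and Cdkn2a windows. They were CACGTG, the E-box of MYC (in 6.02% of all windows), the E2F sites TTTGGCGC (0.417%) and TTTCGCGC (0.256%), and the AP-1 site TGANTCA (6.75%). Of the windows not printed, Notch3 and Kmt2d held GGGCGG 4 times each, and Pik3ca held GGGCGG and TGANTCA 1 time each. Fat1 held TGGGAA 2 times and Trp53 held none of the motifs. The Fat1 window (44949958 to 44950207, 2 CG pairs) lies within the annotated gene, as do those of Notch1 and the Cdkn2a INK4A start.

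Ccnd1 (chromosome 7, 144929931 to 144939925, minus strand, ENSMUSG00000070348) followed the order of Cdkn2a in the isotype group, at 114.6, 60.1 and 41.5 CPM, and stood at 58.1, 42.9 and 35.2 CPM in DTA-1 libraries. The groups overlapped. The fold change was -0.67 ± 0.39 (SE, adjusted p = 0.454 in edgeR) and only -0.15 without isotype replicate 1. Exons of LTO1 on the opposite strand overlap 23.4% of the exon length of Ccnd1. The strand setting of the counting is not given, so how far the overlap affects the level of Ccnd1 is not known. LTO1 had 2231 counts over the 6 libraries and Ccnd1 8921.

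Among 13 other cyclins, kinases and inhibitors of the G1 phase, 10 had negative fold changes (median -0.37) and 0 were called. Cdk4, a partner of cyclin D1, averaged 105.7 ± 28.4 against 73.7 ± 15.1 CPM (SD, n = 3 each), and Cdk6 stood at 60.6, 29.5 and 17.5 against 32.8, 10.9 and 14.4 CPM. Cdkn1c, an inhibitor high in resting cells, ran the other way, at 6.60, 10.2 and 30.5 in isotype and 51.9, 54.3 and 18.3 CPM in DTA-1 libraries, with overlap (fold change 1.39 ± 0.64, SE). The 10 RB and E2F genes were split evenly, 5 positive and 5 negative (median 0.01), with 0 called. E2f1, which RB restrains, stood at 12.2, 7.05 and 1.59 against 5.44, 2.50 and 3.42 CPM.

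Myc (chromosome 15, 61985391 to 61990374, plus strand, ENSMUSG00000022346) had the smallest p of the 10 genes, ranking 384 of 15763. It stood at 66.6, 60.5 and 68.2 CPM in isotype and 48.2, 29.3 and 22.0 CPM in DTA-1 libraries. The lowest isotype library was thus above the highest DTA-1 library, and the isotype libraries lay close together. The means were 65.1 ± 4.02 and 33.2 ± 13.5 CPM (SD, n = 3 each), DTA-1 being at 50.96% of isotype. The fold change was -0.97 ± 0.29 (SE), with an adjusted p of 0.39 in edgeR and 0.124 in DESeq2.

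Of 11 tested partners and relatives of MYC, 7 had negative fold changes (median -0.33) and 0 were called. Mycl, a paralog, stood at 10.8, 16.0 and 19.6 against 9.87, 6.08 and 2.31 CPM, without overlap. Max, the obligate partner, averaged 90.1 ± 11.1 against 64.8 ± 14.04 CPM, and the antagonist Mxd1 82.1 ± 23.7 against 47.7 ± 17.1 CPM (SD, n = 3 each). Mycn lay at 0.377 CPM or less in every library. The 14 MYC targets, genes of ribosome production and metabolism, had smaller differences, 11 negative and 3 positive with a median of -0.19, no separation between groups and 0 called. Ncl, which encodes the nucleolar protein nucleolin, spanned 583.8 to 711.9 CPM in isotype and 495.1 to 782.8 CPM in DTA-1 libraries.

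Pik3ca (chromosome 3, 32397671 to 32468486, plus strand, ENSMUSG00000027665) was the steadiest of the 10 genes. It stood at 93.7, 89.4 and 89.6 CPM in isotype and 95.3, 98.7 and 110.5 CPM in DTA-1 libraries. Each DTA-1 library was above each isotype library by this scaling, but the groups overlapped when library totals alone were used, and the fold change of 0.16 ± 0.14 (SE, adjusted p = 0.591 in edgeR) was then 0.00. Without DTA-1 replicate 3 it was 0.095. That scaling moved the median of all genes from -0.03 to -0.19.

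Pik3cb, the gene of another catalytic subunit, stood at 28.7, 33.3 and 36.9 in isotype and 20.4, 17.7 and 15.1 CPM in DTA-1 libraries, without overlap. It was the only gene of the 18 other PI3K pathway genes that DESeq2 called (fold change -0.87, adjusted p = 0.0323), and it did not pass edgeR (-0.90 ± 0.18, SE, adjusted p = 0.39). DESeq2 lost the call without isotype replicate 2 (adjusted p = 0.326), isotype replicate 3 (0.0574), DTA-1 replicate 2 (0.31) or DTA-1 replicate 3 (0.233). EdgeR called it without DTA-1 replicate 1 (adjusted p = 0.0494). Over those 18 genes 11 fold changes were positive and 7 negative, with a median of 0.09.

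Kmt2d (chromosome 15, 98831669 to 98871204, minus strand, ENSMUSG00000048154) stood at 65.7, 80.9 and 91.6 CPM in isotype and 81.9, 84.3 and 64.9 CPM in DTA-1 libraries. The ranges nearly coincided, with a fold change of -0.04 ± 0.18 (SE, adjusted p = 0.927 in edgeR). Among the related methyltransferases and subunits of its complex, of 14 tested, 11 had negative fold changes and 3 positive ones, all between -0.23 and 0.08, with 0 called and none separating the groups. Kmt2c, the closest relative, stood at 57.2, 72.4 and 107.0 against 82.4, 83.5 and 65.9 CPM, and the demethylase gene Kdm6a at 25.2, 28.4 and 33.7 against 32.6, 29.4 and 18.1 CPM. Pagr1a was listed at 0 in every library.

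**Figure D3:**
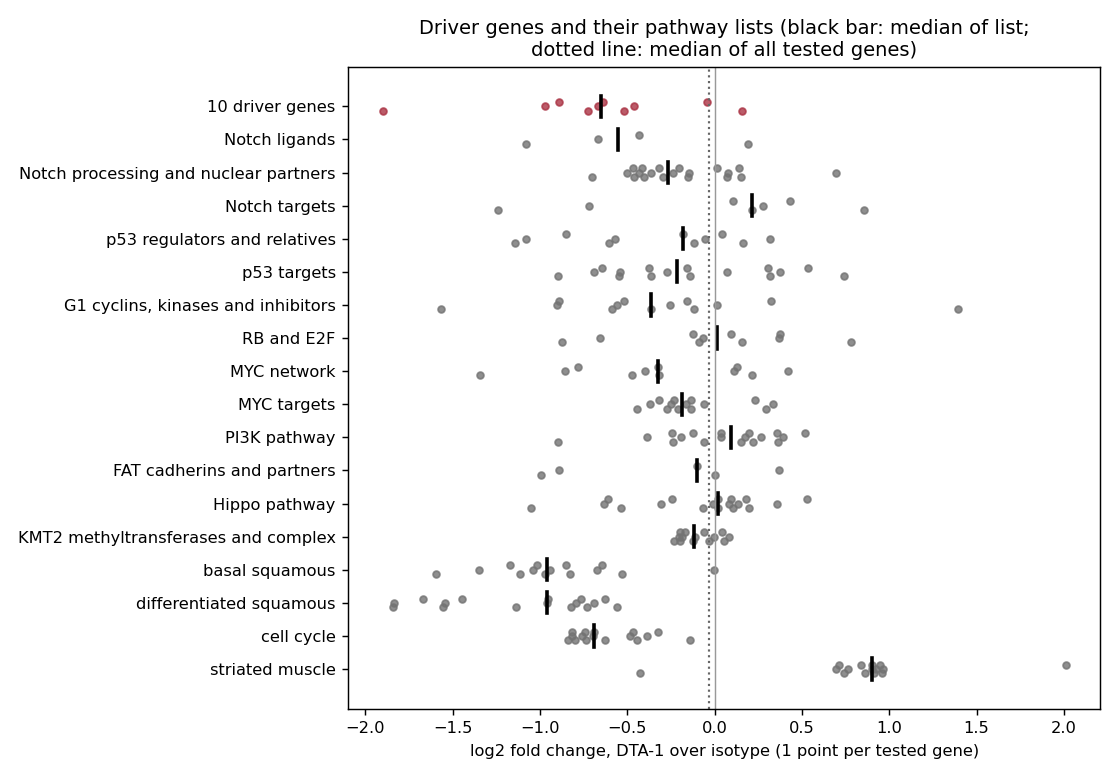
Log2 fold change of DTA-1 over isotype for each tested gene of the 10 driver genes (red) and of their pathway and tissue lists without them (grey), black bars marking list medians and the dotted line that of all tested genes (-0.03). The median is -0.65 for the 10 genes, -0.96 for both squamous lists, -0.69 for the cell cycle list and 0.90 for striated muscle. It lies between -0.55 and 0.21 for the pathway lists.

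Levels can be compared between genes only per exon length. The length used is that of all annotated exons of a gene merged, 14232 bases for Notch1 and 4045 for Trp53. It can exceed the length of the transcripts present, so the order below depends on the annotation. Per kb of exon, Myc had the highest isotype mean, 24.0 ± 1.48 CPM per kb (SD, n = 3), and Notch1 the lowest, 3.87 ± 0.765. Between them came Ccnd1 (15.3 ± 8.07), Cdkn2a (14.2 ± 15.4), Pik3ca (10.0 ± 0.267), Trp53 (9.26 ± 2.002), Notch3 (7.63 ± 1.79), Fat1 (6.83 ± 2.48), Notch2 (6.73 ± 0.237) and Kmt2d (3.98 ± 0.653 CPM per kb). Among neighbors in that order only Notch2 and Kmt2d did not overlap. In DTA-1 libraries Myc was still first at 12.2 ± 4.98 CPM per kb, Pik3ca came next at 11.2 ± 0.883 and Notch1 was last at 2.08 ± 0.703, while Cdkn2a stood ninth at 3.81 ± 1.56. All neighbors overlapped there.

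**Figure D4:**
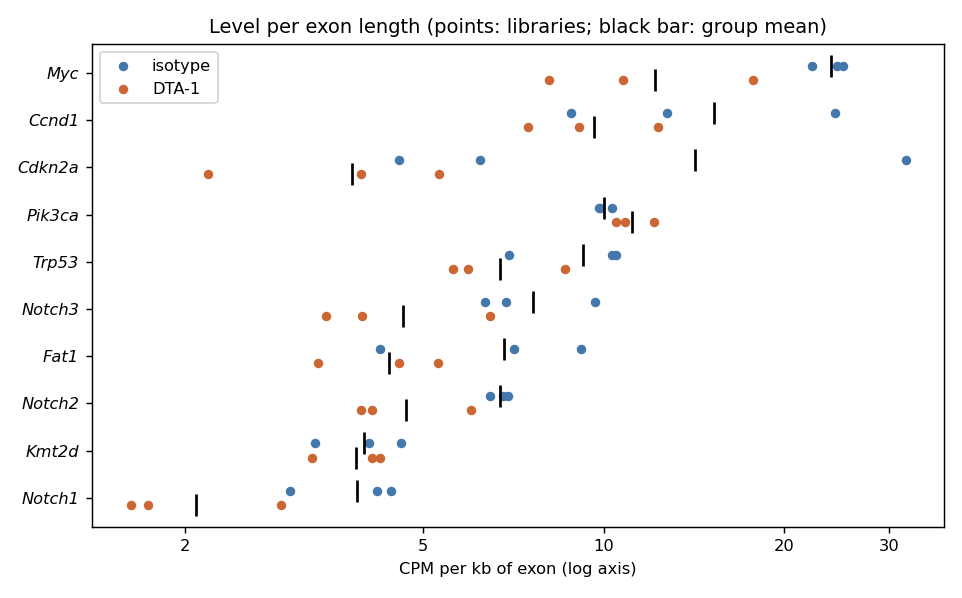
CPM per kb of exon (log axis) of each gene in the isotype (blue) and DTA-1 libraries (orange), ordered by isotype mean, with group means as black bars. Myc isotype libraries lie between 22.3 and 25.1, and the Cdkn2a libraries spread from 2.19 to 31.95.

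Levels of tissue markers also varied between the same libraries. In bulk samples fewer cells of a type and less RNA per cell cannot be told apart. The basal squamous score (mean log2 CPM of 14 genes) was 8.73, 8.13 and 7.42 in isotype and 7.94, 6.91 and 6.56 in DTA-1 libraries, and the cell cycle score (16 genes) 4.48, 4.08 and 3.60 against 4.33, 2.82 and 2.57. Both had their lowest values in DTA-1 replicates 2 and 3, and so did Notch1, Notch2, Notch3, Trp53 and Myc. The differentiated squamous score (16 genes) was 8.06, 8.31 and 8.34 against 7.85, 6.22 and 6.79. Striated muscle markers summed to 46363 to 97323 CPM in isotype and 102514 to 150746 CPM in DTA-1 libraries. B lineage markers summed to 6.01 to 210.9 CPM in isotype and 41.8 to 427.3 CPM in DTA-1 libraries. All 7 had positive fold changes (median 2.22), and 5 separated the groups as higher, but only 2 had more than 3 counts in every library. EdgeR called 0 of them and DESeq2 called 1, against 1.12% of all genes with an adjusted p. T cell markers summed to 7.32 to 12.03 CPM in isotype and 5.305 to 8.575 CPM in DTA-1 libraries, with 7 of 8 fold changes negative (median -0.75), 3 separating the groups as lower and 1 as higher, and 0 called by either tool. Red cell markers summed to 2899 CPM in DTA-1 replicate 2 and to 171.7 CPM or less elsewhere, and adipocyte markers to 1408 CPM in DTA-1 replicate 3 and to 489 CPM or less elsewhere. None of the genes in the basal, differentiated, cell cycle and striated muscle lists was called by edgeR, and DESeq2 called 1, the differentiated squamous gene Lor (adjusted p = 0.0473), as lower.

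Taken as the log2 level of the gene minus the basal squamous score, the groups overlapped for all 10 genes. The score itself spread within groups, with an SD of 0.65 in isotype and 0.72 in DTA-1 libraries, and subtracting it can add that spread. For Myc the SD of log2 CPM in isotype libraries was 0.09 before the subtraction. Overlap on this scale therefore cannot show how much of a difference goes with the score. On this scale Myc was at -2.07 ± 0.68 in isotype and -2.16 ± 0.17 in DTA-1 libraries, and Notch1 at -2.33 ± 0.91 and -2.29 ± 0.28 (SD, n = 3 each). Pik3ca was at -1.59 ± 0.62 and -0.47 ± 0.82, and Kmt2d at -1.80 ± 0.89 and -0.87 ± 0.61. Against the differentiated squamous score, Notch2, Pik3ca and Kmt2d were higher in all DTA-1 than in all isotype libraries, and the other 7 overlapped. With the basal score as a covariate in edgeR the fold change was -0.65 for Myc, -0.73 for Notch1 and -0.34 for Notch2. It was -0.24 for Notch3, -0.13 for Cdkn2a, -0.10 for Kmt2d, -0.09 for Fat1 and -0.03 for Trp53. Pik3ca was at 0.11 and Ccnd1 at 0.19. The median of the 10 was -0.11, and no gene of the 10 or of all tested was called. Pik3cb was at -0.87 in that fit. Whether tissue makeup plays a part in the differences was not tested beyond these values.

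**Figure D5:**
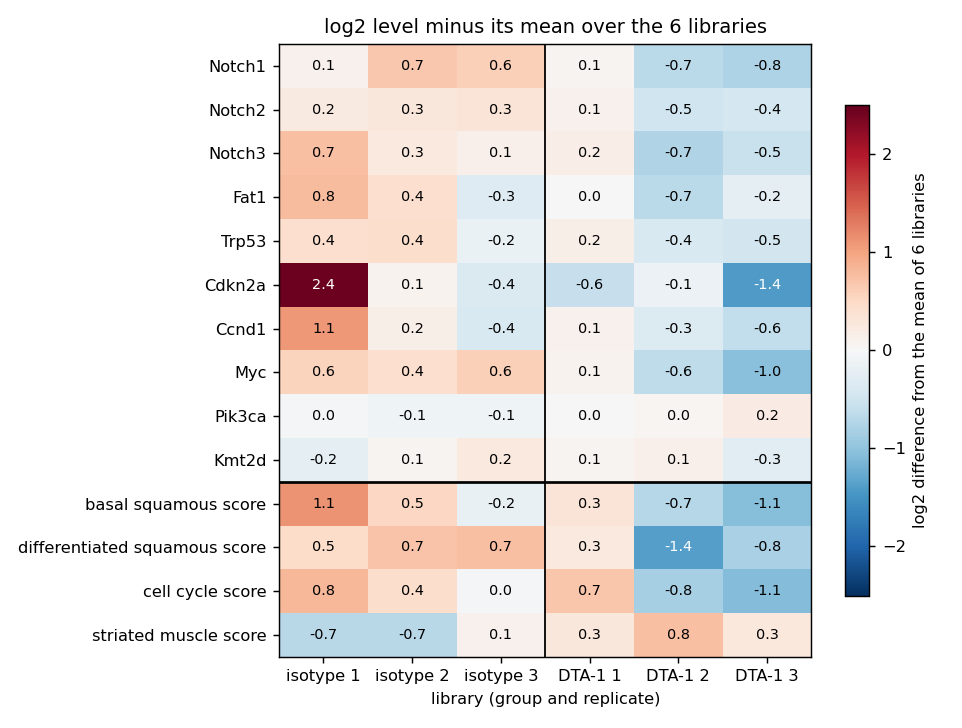
Log2 level of each gene, and score of 4 tissue lists, minus its mean over the 6 libraries (color and number), by library. DTA-1 replicates 2 and 3 are below the mean for 8 of the 10 genes and for both squamous scores and the cell cycle score, and isotype replicate 1 stands out for Cdkn2a.

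Other genes recurrently altered in squamous carcinomas also went both ways. Of 24 tested, 16 had negative and 8 positive fold changes (median -0.11), with 0 called, and 5 separated the groups as lower and 1 as higher, against 9.38% and 8.6% of all tested genes. The lowest p values belonged to the basal factor gene Sox2 (58.9, 59.7 and 36.5 in isotype against 32.1, 25.8 and 13.6 CPM in DTA-1 libraries), to Ajuba and to the growth factor receptor gene Egfr (59.5, 57.0 and 76.7 against 55.3, 30.3 and 38.8 CPM). Rb1, Ep300, Crebbp, Arid1a, Nsd1 and Tgfbr2 had fold changes between -0.17 and 0.37.

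Genes with the most similar profiles were sought among 9917 genes whose mean log2 CPM reached 3, by the root mean square difference of log2 levels centred on their mean over the 6 libraries. The values are a description over 6 libraries, with no test. Closest to Myc were Pak4 (difference 0.083) and the growth factor receptor gene Erbb2 (0.089), with Erbb2 at 87.1, 87.8 and 86.9 in isotype and 72.8, 38.1 and 29.3 CPM in DTA-1 libraries. Closest to Ccnd1 was Hes1 (0.089), followed by Cadm4 (0.10). Notch1 had Clcn5 (0.052) and Serinc5 (0.072), Notch2 had Ankrd13a (0.029) and Pan3 (0.038), and Notch3 had Myo1e (0.062) and Tnks1bp1 (0.065). For Fat1 they were Serpinb8 (0.067) and Tradd (0.068), for Trp53 P2ry1 (0.052) and Stat6 (0.059), for Pik3ca Cryzl1 (0.033) and Pip4p2 (0.035), and for Kmt2d Ddx6 (0.041) and Med13 (0.045). Cdkn2a had no match as close, but the difference grows with a gene's own spread. Its median over the 9917 genes was 1.19 for Cdkn2a and 0.29 for Pik3ca. Nearest to Cdkn2a were the serine protease gene Prss22 (0.26) and B3gnt3 (0.40), both highest in isotype replicate 1. Prss22 stood at 55.7, 14.1 and 11.6 in isotype and 12.0, 14.98 and 5.22 CPM in DTA-1 libraries.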

How the data were processed

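RNA-seq counts of 6 mouse esophagus libraries were analysed, 3 per group as their labels give them. The authors deposited whole-number counts per Ensembl gene, not normalized. The submitters' processing notes name cutadapt 1.13, STAR, HTSeq 0.6.1p1, DESeq2 1.14.1 and build mm10. Settings such as strand are not given there. Of the gene IDs, 153 had no symbol. Positions and exon lengths come from GENCODE M21 (GRCm38). Upstream sequences come from RefSeq (GRCm38.p6), whose table held 8 of the 10 genes, not Myc and Ccnd1.

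The main test was the quasi-likelihood F-test of edgeR 4.0.16 (R 4.3.3, robust fit), with treatment as its sole term, after filterByExpr (10 counts, 15 in total) and TMM scaling. P-values were adjusted over all 15763 genes by Benjamini-Hochberg and called at 0.05. SE is the fold change over the square root of F. Alternatives were DESeq2 1.42.0, limma 3.58.1 (voom), other scalings and filters, a replicate block, a covariate (the basal squamous score) and leaving out each library in turn. DESeq2 without single libraries was added after the data were seen. The test was checked on simulated data. Every pair of libraries differed by more than sampling noise, with a median chi-square per gene of at least 4.26 where noise gives 0.455. Log2 CPM used a prior count of 2, and 3 counts equal 0.108 to 0.141 CPM, which covers counting error only.

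The 10 genes and the 29 lists (318 symbols, all found) were chosen with earlier results of these data known. Named were all 10 genes, up to 3 genes per list by smallest p, and the 2 most similar genes for each of the 10. Genes outside this rule were named after their values were seen. A few genes that the rule names are not reported here. Lists are counted without the 10 genes.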

Additional observations from a re-analysis of the deposited data

How the results depend on the processing

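Over 21 alternatives, 7 of the 10 genes (Trp53, Notch1, Notch2, Notch3, Fat1, Cdkn2a and Myc) kept a negative fold change in each. Pik3ca was -0.00237 with library totals alone and Ccnd1 was 0.19 with the basal squamous score as covariate. With single libraries left out, Kmt2d ranged from -0.15 to 0.094 in edgeR, being positive when isotype replicate 3 or DTA-1 replicate 3 (0.067) was the one missing, and DESeq2 gave 0.11 and 0.084 for those. The causes were not tested. EdgeR with each other scaling or filter or with the covariate, and limma-voom, called 0 genes, hence 0 of the 10. DESeq2 called 180 genes on all libraries. Without single libraries edgeR called 0 to 601 genes and 0 to 3 of the 10, and DESeq2 41 to 2449 genes and 0 to 4 of the 10, the most in both tools without DTA-1 replicate 1. In DESeq2 the count was 180, 56 and 896 on leaving out isotype replicates 1, 2 and 3, and 41 on leaving out DTA-1 replicate 2 or 3. With the replicate number as a block, edgeR called 0 genes and 0 of the 10, with fold changes of -1.05 for Myc and -0.93 for Notch1. The numbers are not shown to pair libraries: deviations from group means of same-numbered libraries correlated at 0.017, -0.33 and -0.086, and 1 of 6 libraries correlated best with its own number. The order of levels per kb of exon over all libraries was the same with library totals alone (0 genes changed place). With 3 libraries per group the SEs were 0.14 to 0.78 for the 10 genes, and fold changes over 3 times their SE, as for Myc and Notch1, were not called.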
